A study of Homo sapiens with 24 samples.

Results

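The data on 10 genes of the BCL2 family were drawn from RNA sequencing of OE33 cells, an established human esophageal adenocarcinoma line. The genes were taken by name: the pro-survival genes BCL2L1 and MCL1, the effectors BAX and BAK1, and the BH3-only genes BID, BIK, BBC3, PMAIP1, BCL2L11 and BMF. Each matched 1 Ensembl identifier among the 61860 genes listed. No cut-off on a measured value was used, but the genes were chosen with earlier results of these data known. All 10 passed the filter on low counts in each of the 4 experiments, with 146 to 30472 counts per library.

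Each experiment held 3 libraries of a treated group and 3 of its own control. In the first, OE33 xenografts were grown in male BALB/c-nu nude mice, which lack T cells, whose feed was either rich in fat (HFD) or normal (ND). The mice were 4 weeks old when bought, received their diet for 8 weeks before the injection and kept it until the tumours were taken out after 21 days. The methods describe the HFD mice as those above a weight limit set from the ND group. In the second, cultured OE33 cells carried HA-tagged TRIM15 (HA-TRIM15) or the empty vector (EV) for 48 h. In the remaining experiments, OE33 cells carried a short hairpin plasmid against YY2 (shYY2) or FOXRED1 (shFOXRED1), each with its own non-targeting hairpin (shControl), for 72 h. The shControl libraries of both knockdowns were separate samples, named shControl-YY2 and shControl-FOXRED1 in the figures. Which hairpin against each gene was sequenced was not given, and all cells derive from 1 line. The labels number the replicates but do not say that they came from separate cultures or animals, so the p-values measure the spread between these samples, which may be technical.

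Library totals ran from 14299807 to 45994561 counts, with a median of 18486548. The targeted genes went with the labels. TRIM15 was counted 111, 130 and 181 times in the HA-TRIM15 libraries and 0 times in each EV library, and 14, 12 and 24 times in HFD against 1, 0 and 0 in ND. YY2 was at 0.661 CPM (counts per 1000000 of the TMM-adjusted library total) ± 0.0628 in shYY2 and 2.35 ± 0.0241 in shControl (SD, n = 3 each), and FOXRED1 at 10.1 ± 1.19 in shFOXRED1 and 17.4 ± 0.286 in shControl. FOXRED1 was also lower in shYY2, at 17.7 CPM ± 1.5 against 32.8 ± 0.749. The 8 epithelial markers summed to between 11445 and 18117 CPM in every library, and ADIPOQ, the adipocyte marker, never exceeded 3 counts. A list of 14 stromal, endothelial, immune and fat cell markers summed to 25.5 to 28.1 CPM in HFD against 31.7 to 34.7 in ND, 13.1 to 14.3 in HA-TRIM15 against 14.5 to 16.6 in EV, 44.4 to 46.2 in shYY2 against 12.7 to 13 in shControl, and 39.1 to 43 in shFOXRED1 against 24.7 to 26 in shControl. Most of that sum was COL1A1, at 42.7 CPM in shYY2 and 10.6 in its control, while the leukocyte marker PTPRC averaged at most 0.073 CPM in any group. All these markers are human genes, and how mouse reads of the xenografts were handled is not given. Low sums in HFD and ND therefore do not show that the tumours held few mouse cells. The part of these markers in the results was not tested. Library 3 of shFOXRED1 stood apart in its group, with a chi-square of 7.94 and 6.9 per gene against libraries 1 and 2, which differed from each other by 2.16.

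Proteins of the BCL2 family decide whether the outer mitochondrial membrane is opened during apoptosis. The effectors BAX and BAK form the pores through which cytochrome c leaves, the pro-survival proteins hold them and their activators in check, and the BH3-only proteins are the stress-responsive members that bind the pro-survival proteins or act on the effectors directly. Much of the control over BH3-only genes is transcriptional, whereas MCL1 protein is short-lived, so its transcript level matters for its supply. Many epithelial cancer lines are known to rely on BCL2L1 (BCL-XL) and MCL1 more than on BCL2 itself.

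Levels of different genes were compared as CPM per kilobase of exon. All annotated exons of a gene were merged for this, from 953 bases for BIK to 6658 for BCL2L11. The transcripts in use may be shorter, so ranks between genes depend on these lengths, which the SDs do not cover. MCL1 ranked first in all 8 groups, from 95.8 ± 1.73 in shControl of the FOXRED1 experiment to 186 ± 2.87 in HFD. BCL2L1 came second in 7 groups, and in shFOXRED1 BIK stood above it (58.5 ± 2.93 against 48.1 ± 5.3). In shControl of that experiment BCL2L1 (57.7 ± 2.52) and BIK (54.5 ± 3.57) lay within 1 SD of each other. Among the BH3-only genes PMAIP1 led in 6 groups, at 27 ± 0.764 in EV to 52.4 ± 0.879 in shYY2, although in EV the level of BID (26.5 ± 0.459) and in ND that of BIK (39.7 ± 1.56 against 40.7 ± 0.836) lay within 1 SD of it. BIK led the BH3-only genes in both groups of the FOXRED1 experiment. At the low end, BMF was lowest in EV, HA-TRIM15 and shControl of the YY2 experiment, at 1.63 to 2.61 CPM per kilobase. BCL2L11 was lowest in HFD, ND and shControl of the FOXRED1 experiment, PMAIP1 in shFOXRED1, and BIK in shYY2, where BAX was within 1 SD of it. Levels of different experiments were not tested against each other, since they were prepared apart.

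**Figure D1:**
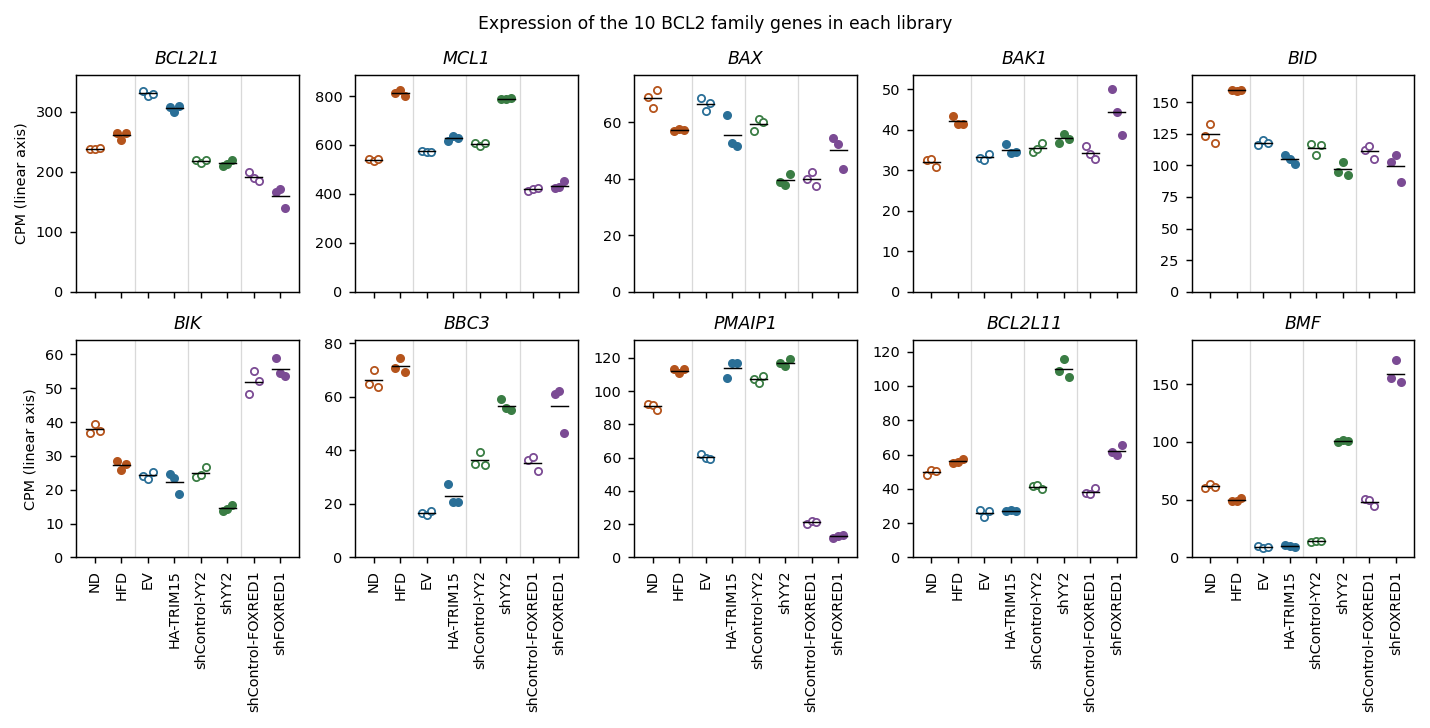
CPM (linear axis from 0) of the 10 genes in each of the 24 libraries; open circles are controls, filled circles treated libraries, black lines the means of 3, and colours the 4 experiments. BMF rises from 14.2 to 101 CPM in shYY2 and from 48.3 to 159 in shFOXRED1, while PMAIP1 rises from 60.4 to 114 in HA-TRIM15 and falls from 21.0 to 12.8 in shFOXRED1.

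Changes were called with edgeR's quasi-likelihood test at a Benjamini-Hochberg adjusted p below 0.05 over all genes tested. The genes tested reach down to a minimum count of 10, while the members had at least 146 counts in each library. Shares called among genes of like level were not computed. In HFD against ND, 6 of the 10 genes were higher and 3 lower, in an experiment where 49.5% of all genes were called, 25.6% higher and 23.9% lower. HA-TRIM15 against EV gave 3 higher and 3 lower, against 22.1% of all genes called, 12.5% higher and 9.53% lower. In shYY2 against shControl 5 were higher and 3 lower, where 75% of all genes were called, 36.8% higher and 38.1% lower. With shFOXRED1, 5 were higher and 2 lower, where 36.6% of all genes were called, 16.8% higher and 19.7% lower. The share of members called in shYY2 was thus close to that of all genes, and the median size of their log2 fold change there was 0.48 against 0.47 over all genes. The corresponding medians were 0.31 against 0.21 in HFD, 0.15 against 0.13 in HA-TRIM15 and 0.35 against 0.24 in shFOXRED1. The 3 libraries of the groups did not overlap for 9 genes in HFD, 7 in HA-TRIM15, 8 in shYY2 and 7 in shFOXRED1, where 56.2%, 37.7%, 76.3% and 46.7% of all genes did not overlap. With a fold change of at least 1.5 required as well, 1 gene was higher and 0 lower in HFD, 1 and 0 in HA-TRIM15, 3 and 1 in shYY2 and 3 and 1 in shFOXRED1, where 12%, 1.88%, 39.6% and 10.8% of all genes were called. Over the 40 combinations of gene and experiment, 30 were called. BAX and PMAIP1 were called in all 4 experiments. 4 genes were only higher where called (MCL1, BAK1, BBC3 and BCL2L11), 1 was only lower (BIK), and 5 were higher in some and lower in another.

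**Figure D2:**
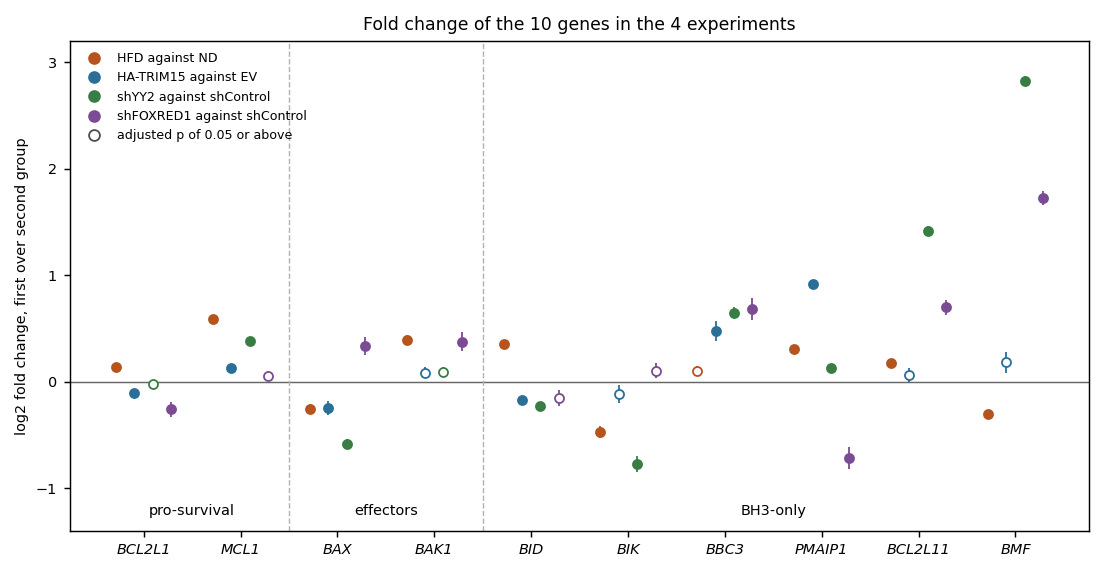
Log2 fold change (first over second group) of each gene in the 4 experiments, with bars of 1 standard error and open symbols where the adjusted p was 0.05 or above; dashed lines part pro-survival, effector and BH3-only genes. BMF in shYY2 (2.83) and shFOXRED1 (1.72) lie highest, and BIK in shYY2 (-0.77) and PMAIP1 in shFOXRED1 (-0.72) lowest.

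Of the pro-survival genes, MCL1 was the one that rose in 3 experiments. The xenografts held 812, 825 and 800 CPM in HFD and 541, 535 and 544 in ND. Every HFD library thus lay well above every ND library, with a log2 fold change of 0.59 ± 0.03 (SE, adjusted p = 3.01e-10). In the YY2 experiment MCL1 read 786, 786 and 790 CPM after the knockdown and 607, 596 and 610 in shControl, again without overlap (log2 fold change 0.38 ± 0.03, adjusted p = 9.80e-10). HA-TRIM15 libraries held 617, 638 and 628 CPM against 577, 572 and 573 in EV, a smaller rise with the groups apart (0.13 ± 0.03, adjusted p = 0.00427). In shFOXRED1, 422, 429 and 451 CPM overlapped with 411, 420 and 426 in shControl, and the log2 fold change of 0.05 ± 0.05 did not pass the test (adjusted p = 0.425).

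BCL2L1, which encodes BCL-XL, moved by less. It rose in HFD (265, 253 and 265 CPM against 238, 238 and 239; log2 fold change 0.13 ± 0.03, adjusted p = 0.00377) and fell in shFOXRED1 (167, 172 and 139 CPM against 200, 190 and 184; -0.26 ± 0.07, adjusted p = 0.00705). The HFD and ND libraries did not overlap, nor did those of the FOXRED1 experiment, where library 3 of shFOXRED1 was the lowest. Without that library the log2 fold change was -0.18 (adjusted p = 0.00262), so the fall was called but smaller. In HA-TRIM15 it read 308, 300 and 310 CPM against 335, 327 and 330, a log2 fold change of -0.11 ± 0.03 (adjusted p = 0.0162). That call was lost when HA-TRIM15 library 2 or EV library 1, 2 or 3 was left out, at adjusted p between 0.0511 and 0.0855. In shYY2 the libraries (210, 213 and 219 CPM) overlapped with their controls (220, 215 and 219), at -0.03 ± 0.03 (adjusted p = 0.454). Both pro-survival genes were thus higher in HFD. The ratio of MCL1 to BCL2L1 per kilobase was 2.36 ± 0.0949 in HFD and 1.72 ± 0.0132 in ND. In the YY2 experiment it was 2.79 ± 0.0498 in shYY2 against 2.1 ± 0.0127 in its control. The antisense gene ABALON, on the opposite strand, shares 1424 bases, or 43%, of the BCL2L1 exon and had at most 6 counts per library. Reads there may not be told apart if strand was not used in counting. What this meant for the BCL2L1 level was not tested.

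The effector BAX was lower in 3 experiments and higher in 1. The YY2 knockdown left 39, 37.8 and 41.8 CPM against 56.9, 61.1 and 59.9 in shControl. All knockdown libraries were below all controls, with a log2 fold change of -0.58 ± 0.05 (adjusted p = 1.60e-08). In HFD, 56.8, 57.5 and 57.1 CPM stood below 69, 65 and 71.5 in ND (-0.26 ± 0.04, adjusted p = 0.000113). In HA-TRIM15, 62.7, 52.5 and 51.5 CPM stood below 68.4, 64.1 and 66.8 in EV (-0.25 ± 0.06, adjusted p = 0.0102). Library 1 of HA-TRIM15 was the nearest to EV, and leaving out library 2 took the adjusted p to 0.0521. FOXRED1 knockdown libraries held 54.5, 52.4 and 43.4 CPM against 39.9, 42.3 and 37.5 in shControl, all above their controls, and BAX rose by 0.33 ± 0.09 on the log2 scale (adjusted p = 0.0057). Without library 3 of shFOXRED1 the rise was 0.42.

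BAK1, the other effector, was never called lower. It rose in HFD, where 43.4, 41.5 and 41.4 CPM lay above 32.5, 32.7 and 30.9 in ND (0.39 ± 0.05, adjusted p = 3.48e-06), and in shFOXRED1, where 50.1, 44.3 and 38.7 CPM lay above 35.9, 34.1 and 32.8 (0.37 ± 0.09, adjusted p = 0.00304). In HA-TRIM15 the libraries did not overlap with EV (36.5, 34.3 and 34.6 CPM against 33, 32.6 and 33.9), but the log2 fold change of 0.09 ± 0.05 did not pass the test (adjusted p = 0.247). In shYY2, 36.8, 39 and 37.8 CPM overlapped with 34.5, 35.3 and 36.8 through library 3 of shControl, and the value was 0.09 ± 0.05 (adjusted p = 0.101). It was called when 10 counts in every library were required (0.12, adjusted p = 0.0397). BAX and BAK1 therefore parted in the HFD experiment. The ratio of BAX to BAK1 per kilobase was 1.16 ± 0.0371 in HFD against 1.83 ± 0.14 in ND, 0.893 ± 0.0589 in shYY2 against 1.43 ± 0.046, 1.35 ± 0.105 in HA-TRIM15 against 1.71 ± 0.0542, and 0.967 ± 0.0404 in shFOXRED1 against 0.996 ± 0.0563. Only in the last did the libraries of both groups overlap in this ratio, which was not tested. A pseudogene of BAK1, BAK1P1, carried 3 to 20 counts per library, and BAK1P2 at most 2, against at least 483 for BAK1.

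In the 3 experiments on cultured cells the largest change among the 10 genes was that of a BH3-only gene. BMF, BCL2L11 (BIM) and BBC3 (PUMA) were all called higher in both knockdowns, where 9.31% of the 14922 genes tested in both were called higher in both and 12.7% lower in both. To show what stands upstream of these 3 genes and of BAX, which moved in opposite directions in the knockdowns, 1 RefSeq promoter window of each is printed. BMF has a second window, at chr15:40106917-40107216, with no match to the motifs searched. The one shown lies at the outer start of the gene in GENCODE 29. Each spans 250 bases before to 50 bases after an annotated start on GRCh38.p14, 5′ to 3′ on the gene's strand. Capitals mark 4 of 6 motifs searched on both strands: CACGTG (E-box), GTAAACA (FOXO), TGANTCA (AP-1) and CCAAT, which reads ATTGG on the other strand. The windows are BMF at chr15:40108830-40109129 (minus strand), BCL2L11 at chr2:111120664-111120963 (plus strand), BBC3 at chr19:47232618-47232917 (minus strand) and BAX at chr19:48954625-48954924 (plus strand).
BMF: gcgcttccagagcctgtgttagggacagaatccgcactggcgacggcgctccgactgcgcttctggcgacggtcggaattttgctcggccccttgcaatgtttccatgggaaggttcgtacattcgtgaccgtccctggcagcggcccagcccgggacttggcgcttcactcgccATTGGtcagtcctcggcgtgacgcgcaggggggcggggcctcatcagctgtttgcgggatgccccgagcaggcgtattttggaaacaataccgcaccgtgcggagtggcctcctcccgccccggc
BCL2L11: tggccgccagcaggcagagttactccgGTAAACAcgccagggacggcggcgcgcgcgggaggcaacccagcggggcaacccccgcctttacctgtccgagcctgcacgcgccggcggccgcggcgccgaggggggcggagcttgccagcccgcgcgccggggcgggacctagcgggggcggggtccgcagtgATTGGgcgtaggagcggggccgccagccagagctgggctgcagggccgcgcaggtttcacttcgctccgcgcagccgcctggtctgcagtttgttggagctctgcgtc
BBC3: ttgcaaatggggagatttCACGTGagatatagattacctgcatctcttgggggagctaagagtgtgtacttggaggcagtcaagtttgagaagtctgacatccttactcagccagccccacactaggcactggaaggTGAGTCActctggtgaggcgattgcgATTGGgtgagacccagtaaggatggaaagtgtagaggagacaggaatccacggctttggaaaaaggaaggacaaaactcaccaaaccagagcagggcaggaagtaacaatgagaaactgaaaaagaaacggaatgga
BAX: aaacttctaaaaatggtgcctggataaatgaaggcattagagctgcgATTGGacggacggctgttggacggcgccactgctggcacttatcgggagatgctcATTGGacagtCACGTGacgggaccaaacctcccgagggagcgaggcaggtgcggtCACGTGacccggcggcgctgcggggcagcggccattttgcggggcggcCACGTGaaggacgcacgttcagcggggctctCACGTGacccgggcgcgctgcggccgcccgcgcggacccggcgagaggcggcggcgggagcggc

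The BCL2L11 window held 1 FOXO match at -223 from the start site, as 3.42% of 35116 human promoter windows did, and 1 CCAAT box at -58. BMF had 1 CCAAT box at -75, a motif present in 34.6% of all windows. BBC3 had an E-box at -232 (7.26% of windows), an AP-1 match at -113 (7.71%) and a CCAAT box at -87. BAX held 4 E-boxes, at -138, -93, -45 and -14, and 5 windows (0.0142%) held as many or more. It also had CCAAT boxes at -203 and -148. The cyclic AMP response element TGACGTCA (1.85% of windows) and the YY-type motif AAGATGGC (2.89%) were found in none of these 4 windows. No match overlapped another. Of the 10 genes, 8 had a window in the table, and BMF, BCL2L11, BBC3 and BAX had a GC content of 65%, 74.7%, 48% and 67.3% in those shown, beside a median of 58.7% over all windows.

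BMF, a BH3-only protein known for its tie to the cytoskeleton and to cell detachment, changed most. It read 99.6, 102 and 101 CPM in shYY2 against 13.7, 14.5 and 14.5 in shControl. The libraries of each group lay within a few CPM of each other, far from the other group, and BMF was 7.09-fold higher (log2 fold change 2.83 ± 0.05, adjusted p = 1.05e-16). By size of change it ranked 155 of 16006 genes. In shFOXRED1 it read 155, 171 and 152 CPM against 50.9, 49.3 and 44.6, 3.3-fold higher (1.72 ± 0.07, adjusted p = 1.36e-11), rank 78 of 15730. The controls of both knockdowns themselves differed in level, with means of 14.2 and 48.3 CPM. In the xenografts BMF fell, from 60.4, 63.2 and 61.2 CPM in ND to 49.1, 48.9 and 51.3 in HFD, without overlap (-0.31 ± 0.04, adjusted p = 1.25e-05). In HA-TRIM15 it was low in both groups (11, 9.95 and 9.23 CPM against 9.52, 8.13 and 9.03), and the overlapping groups gave no call (0.18 ± 0.10, adjusted p = 0.205). The antisense gene BMF-AS1, which shares 461 exon bases with BMF, had 0 counts in all libraries.

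BCL2L11 encodes BIM, which binds all pro-survival proteins. It read 109, 116 and 105 CPM in shYY2 against 41.6, 42.3 and 40 in shControl, so each knockdown library was more than 2-fold above each control (log2 fold change 1.42 ± 0.04, adjusted p = 1.20e-13). In shFOXRED1 it read 61.2, 60 and 65.8 CPM against 37.3, 37.2 and 40.6, also apart (0.70 ± 0.07, adjusted p = 7.40e-07). The rise in HFD was small, from 48, 51 and 50.2 CPM in ND to 55.2, 55.4 and 57.3 (0.17 ± 0.04, adjusted p = 0.00307), with no overlap. HA-TRIM15 (27.3, 27.4 and 27.1 CPM) overlapped with EV (27.5, 23.5 and 27.1), at 0.06 ± 0.07 (adjusted p = 0.523). The lincRNA gene MIR4435-2HG lies on the opposite strand and shares 727 bases, or 10.9%, of the BCL2L11 exon, so reads there may not be told apart if strand was not used in counting. Its own log2 fold change was 0.47 in HFD, -0.12 in HA-TRIM15, 0.51 in shYY2 and -0.64 in shFOXRED1, the last against the direction of BCL2L11.

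BBC3 encodes PUMA, a p53 target that also answers to other stress. Its rise was of like size in both knockdowns. In shYY2, 59.3, 55.7 and 55 CPM lay above 34.7, 39.3 and 34.6 (log2 fold change 0.65 ± 0.05, adjusted p = 1.80e-08), and in shFOXRED1, 61.1, 62.2 and 46.4 CPM lay above 36.5, 37.4 and 32.1 (0.68 ± 0.10, adjusted p = 3.95e-05). Library 3 of shFOXRED1 was again the lowest of its group, and without it the value was 0.80. In HA-TRIM15 BBC3 read 27.3, 20.6 and 20.7 CPM against 16.4, 15.9 and 17.3 in EV, all above the controls with library 1 the highest (0.48 ± 0.10, adjusted p = 0.00298). Without that library the value was 0.32 and still called. HFD gave 70.6, 74.3 and 69.4 CPM against 64.7, 70 and 63.7, overlapping through ND library 2, and no call (0.10 ± 0.05, adjusted p = 0.0735). Leaving out that ND library gave 0.15 with an adjusted p of 0.00764.

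PMAIP1 encodes NOXA, which binds MCL1 and is induced by p53 and by the unfolded protein response. It was the gene of the 10 with the largest change in HA-TRIM15, at 108, 117 and 117 CPM against 62.4, 59.7 and 59.2 in EV. No HA-TRIM15 library came near an EV library, and PMAIP1 was 1.88-fold higher (log2 fold change 0.91 ± 0.04, adjusted p = 2.33e-09), rank 182 of 15745 genes by size. It also rose in HFD (113, 111 and 113 CPM against 92, 91.9 and 88.7; 0.31 ± 0.04, adjusted p = 2.38e-06) and slightly in shYY2 (117, 115 and 119 CPM against 107, 105 and 109; 0.13 ± 0.03, adjusted p = 0.0017). Both pairs of groups were apart. In shFOXRED1 it fell, from 20.1, 21.7 and 21.1 CPM to 11.8, 13.1 and 13.5, again without overlap (-0.72 ± 0.10, adjusted p = 3.42e-05). The mean in shControl of the FOXRED1 experiment (21 CPM) was far below the 107 CPM of the other shControl, at the same 72 h after transfection.

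BIK and BID made up the rest. BIK, an endoplasmic reticulum BH3-only protein, fell in shYY2, from 23.7, 24.3 and 26.6 CPM to 13.8, 14.3 and 15.6 (log2 fold change -0.77 ± 0.07, adjusted p = 7.69e-08), and in HFD, from 36.7, 39.5 and 37.4 to 28.5, 25.7 and 27.6 (-0.47 ± 0.05, adjusted p = 1.52e-06). In both, every treated library was below every control. BIK was at -0.11 ± 0.09 in HA-TRIM15 (adjusted p = 0.373) and 0.10 ± 0.07 in shFOXRED1 (adjusted p = 0.28), with overlapping groups. BID, which caspase-8 cleaves to link death receptors to mitochondria, rose in HFD to 160, 159 and 160 CPM from 123, 133 and 118 (0.35 ± 0.04, adjusted p = 3.89e-06). It fell in HA-TRIM15 (108, 105 and 101 CPM against 116, 120 and 118; -0.17 ± 0.04, adjusted p = 0.00416) and in shYY2 (95.1, 103 and 92.1 CPM against 117, 108 and 116; -0.23 ± 0.04, adjusted p = 0.000162). None of these pairs of groups overlapped. In shFOXRED1 BID read 103, 108 and 86.5 CPM against 112, 115 and 105, overlapping, with no call (-0.16 ± 0.07, adjusted p = 0.112). With the replicate number as a block BID passed there, at -0.16 and an adjusted p of 0.00976, and it was the only member call in that experiment that the pairing changed.

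The make-up of the transcripts of the 6 BH3-only genes shifted with these changes. BAD, a BH3-only gene outside the 10, was not in the sum. It averaged from 5.64 CPM per kilobase in shControl of the FOXRED1 experiment to 15.7 in ND. BMF formed 2.18% ± 0.0594 of the summed CPM per kilobase of the 6 genes in shControl and 13% ± 0.0941 in shYY2, and 7.75% ± 0.583 and 20.5% ± 1.01 in the FOXRED1 experiment. The share of BCL2L11 was 11.6% ± 0.521 in shYY2 against 5.18% ± 0.239. PMAIP1 formed 45.9% ± 3.18 in HA-TRIM15 against 30.1% ± 0.897 in EV, and 4.02% ± 0.472 in shFOXRED1 against 8.2% ± 0.183. In HFD the share of BIK was 18.5% ± 0.771 against 26.8% ± 0.427 in ND. The libraries of the compared groups did not overlap for any of these shares. The 2 pro-survival genes took 57.5% ± 0.265 of the sum over all 10 genes in HFD against 50.8% ± 0.703 in ND, and 44.7% ± 1.41 in shFOXRED1 against 51.4% ± 0.928 in its control. In HA-TRIM15 they took 61.4% ± 1.08 against 63.9% ± 0.334, and in shYY2 58.3% ± 0.19 against 56.2% ± 0.498. These shares were set by the levels above and were not tested.

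**Figure D3:**
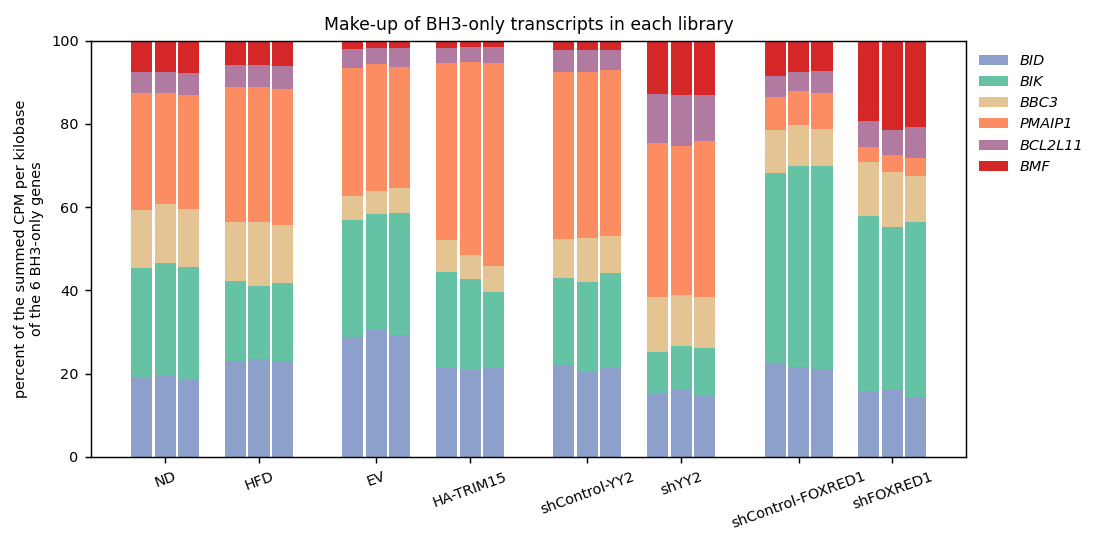
Share (percent) of each BH3-only gene in the summed CPM per kilobase of the 6 genes, 1 stacked bar per library and 3 bars per group. BMF at the top widens from 2.18% to 13% in shYY2 and from 7.75% to 20.5% in shFOXRED1, and PMAIP1 widens from 30.1% to 45.9% in HA-TRIM15.

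Whether a gene moved differently in a pair of experiments was tested as the difference of the log2 fold changes over 12 libraries with edgeR. For HFD minus HA-TRIM15, 8 of the 10 genes differed, 4 upward and 4 downward, against 35.2% of all genes, 21.5% upward and 13.6% downward. The differences were largest for PMAIP1 (-0.58 ± 0.06, adjusted p = 6.82e-08), which rose more in HA-TRIM15, and for BID (0.55 ± 0.06, adjusted p = 2.20e-07) and MCL1 (0.49 ± 0.04, adjusted p = 8.52e-09). BAX fell in both, and its difference was 0.02 ± 0.08 (adjusted p = 0.866). The differences of BIK (-0.33, adjusted p = 0.0152) and BBC3 (-0.35, adjusted p = 0.0146) were lost without HA-TRIM15 library 1, at -0.24 (adjusted p = 0.074) and -0.18 (adjusted p = 0.101), and that of BCL2L11 (0.14 ± 0.07, adjusted p = 0.168) passed without EV library 2, at 0.20 (adjusted p = 0.0316).

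For shYY2 minus shFOXRED1, 8 of the 10 differed as well, 5 upward and 3 downward, against 54.4% of all genes, 26.4% upward and 28% downward. BMF (1.10 ± 0.09, adjusted p = 7.23e-10) and BCL2L11 (0.72 ± 0.08, adjusted p = 1.36e-07) rose in both and more in shYY2. The difference for BAX was -0.92 ± 0.10 (adjusted p = 1.31e-07) and for PMAIP1 0.84 ± 0.09 (adjusted p = 2.61e-08), the 2 genes called in opposite directions, as 9.21% of all genes were. BIK differed by -0.88 ± 0.10 (adjusted p = 2.44e-07) and MCL1 by 0.33 ± 0.05 (adjusted p = 8.72e-06). BBC3 gave -0.04 ± 0.13 (adjusted p = 0.826). The difference of BAK1 (-0.28 ± 0.11, adjusted p = 0.0288) was lost without library 1 or 3 of shYY2, library 3 of either shControl, or library 1 of shFOXRED1, with adjusted p of 0.0613 to 0.104. That of BCL2L1 (0.24 ± 0.08, adjusted p = 0.0182) was lost without library 1 of the FOXRED1 shControl, at 0.20 (adjusted p = 0.0695), and was 0.14 (adjusted p = 0.0234) without library 3 of shFOXRED1. That of BID (-0.08 ± 0.09, adjusted p = 0.508) passed without library 3 of shFOXRED1, at -0.17 (adjusted p = 0.0384).

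Of 83 further genes of apoptosis in 6 lists, 80 were tested in HFD, and 32 were higher and 15 lower. For HA-TRIM15 these were 27 and 9 of 77, for shYY2 26 and 38 of 78 and for shFOXRED1 21 and 24 of 79. The shares called were thus 58.8%, 46.8%, 82.1% and 57%, beside 49.5%, 22.1%, 75% and 36.6% of all genes. Their median log2 fold change was 0.08, 0.06, -0.13 and 0.03, where that of all genes was -0.01, -0.01, -0.01 and 0.01.

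The list of other BCL2 family genes also held BNIP1, BNIP2, BNIP3, BNIP3L and BCLAF1, which are named for interaction or association with BCL2. In HA-TRIM15 BNIP1, BNIP2 and BCLAF1 were among the genes called higher. Of the list, 5 of 15 were higher and 1 lower in HFD, 5 of 13 and 0 in HA-TRIM15, 6 of 13 and 4 in shYY2, and 3 of 15 and 1 in shFOXRED1. That is 40%, 38.5%, 76.9% and 26.7% called, below the share of all genes in HFD (49.5%) and shFOXRED1 (36.6%), near it in shYY2 (75%) and above it in HA-TRIM15 (22.1%). BCL2A1, a pro-survival gene of low level here, rose in HFD from 0.688 to 1.46 CPM (log2 fold change 1.08). BCL2 itself was at most 3.09 CPM on average in any group, and it fell in shYY2 from 2.98 CPM ± 0.3 to 1.08 ± 0.465 (-1.45 ± 0.24, adjusted p = 6.03e-05). BCL2L14 rose there from 0.465 to 3.78 CPM (2.98 ± 0.26). BAD, a BH3-only gene, rose in shFOXRED1 from 9.64 to 13.7 CPM (0.52 ± 0.14, adjusted p = 0.00928), and BCL2L15 from 51.5 to 77.7 CPM (0.59). BCL2L15 also rose in HA-TRIM15 (0.28), and BNIP1 rose in HFD (0.42) and HA-TRIM15 (0.28).

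Among the genes of the apoptosome and the caspases, 4 were higher and 5 lower of 16 in HFD, 1 and 3 in HA-TRIM15, 4 and 9 in shYY2, and 4 and 4 in shFOXRED1. The shares called, 56.2%, 25%, 81.2% and 50%, lay close to the 49.5%, 22.1% and 75% of all genes in the first 3 experiments and above the 36.6% in shFOXRED1. CYCS, which encodes the cytochrome c that BAX and BAK pores let out, rose in HFD from 150 CPM ± 1.95 to 266 ± 5.01 (0.83 ± 0.03, adjusted p = 1.23e-11). It fell in shYY2 from 344 ± 21.1 to 121 ± 3.99 (-1.51 ± 0.04, adjusted p = 3.82e-14) and in shFOXRED1 from 178 ± 8.05 to 85.5 ± 1.03 (-1.06 ± 0.06, adjusted p = 4.77e-10). APAF1, the apoptosome scaffold, rose in HFD (0.70), and PARP1, a caspase substrate, fell in shYY2 (-1.04) and shFOXRED1 (-0.67). In HA-TRIM15 CASP2 fell (-0.26).

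The list of inhibitors of apoptosis also held XAF1, which is known as an antagonist of XIAP. Of the 8 tested, 7 were higher in HFD and 0 lower, where 25.6% of all genes were called higher, with a median log2 fold change of 0.47 where the median of all genes was -0.01. XAF1 was the gene not called (0.16). BIRC3 rose from 734 to 1242 CPM (0.76 ± 0.04) and BIRC2 from 128 to 194 CPM (0.61 ± 0.04). In HA-TRIM15, 5 were higher and 2 lower (87.5% called, beside 22.1% of all genes), with BIRC3 up from 502 to 796 CPM (0.66 ± 0.03) and BIRC7 down from 1.44 to 0.837 CPM (-0.76 ± 0.24). In shYY2 2 were higher and 3 lower (62.5% called, beside 75% of all genes), and in shFOXRED1 3 were higher and 4 lower (87.5%, beside 36.6%). Those higher in shYY2 were BIRC7 (1.57) and XAF1, from 4.86 to 8.52 CPM (0.81 ± 0.12, adjusted p = 1.47e-05), and in shFOXRED1 BIRC7 (1.08), XAF1 (0.74) and CFLAR (0.15). Those lower in shYY2 were BIRC3, from 833 to 566 CPM (-0.56), BIRC5, or survivin (-0.36), and XIAP (-0.24). In shFOXRED1 the lower genes were BIRC5 (-0.78), BIRC3, from 883 to 536 CPM (-0.72), BIRC2 (-0.21) and XIAP (-0.20).

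The death receptors and their adaptors had 4 genes higher and 1 lower of 11 in HFD, 3 and 1 in HA-TRIM15, 5 and 5 in shYY2, and 4 and 1 in shFOXRED1. These were 45.5%, 36.4%, 90.9% and 45.5% called, beside 49.5%, 22.1%, 75% and 36.6% of all genes. TNFSF10, the ligand TRAIL, rose from 12 to 55.8 CPM in shYY2 (2.22 ± 0.06) and from 28.3 to 54.7 CPM in shFOXRED1 (0.95 ± 0.08). Its receptor TNFRSF10A fell in shYY2 (-1.12) and rose in HA-TRIM15 (0.22), as did the decoy receptor TNFRSF10D there (0.33). FAS rose in HFD (0.27), as did RIPK1 (0.25), and FAS fell in shFOXRED1 (-0.73).

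A list of mitochondrial partners and turnover held outer membrane genes, ubiquitin enzymes that act on family members, dynein light chains and chaperones. Of its 14 genes, 5 were higher and 3 lower in HFD, 3 and 1 in HA-TRIM15, 5 and 7 in shYY2, and 3 and 7 in shFOXRED1. These were 57.1%, 28.6%, 85.7% and 71.4% called, beside 49.5%, 22.1%, 75% and 36.6% of all genes. The 5 higher in HFD were VDAC1, VDAC2, the ubiquitin ligase HUWE1 (0.24), the deubiquitinase USP9X (0.18) and HSPA5. VDAC1, the outer membrane channel, rose in HFD (0.77) and fell in shFOXRED1 (-0.49). HSPA5, the endoplasmic reticulum chaperone BiP, rose in HFD (0.34) and HA-TRIM15 (0.54) and fell in shYY2 from 1596 to 352 CPM (-2.18 ± 0.03). MTCH2, a BID receptor of the outer membrane, fell in shYY2 (-1.17), USP9X rose in HA-TRIM15 (0.25) and BAG1, a co-chaperone, rose in shFOXRED1 (0.48).

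The last list held transcription factors known upstream of BH3-only genes, and also MDM2, CDKN1A, TRIB3 and CHAC1, which are not transcription factors. In HA-TRIM15 10 were higher and 2 lower of the 15 tested (80% called, beside 22.1% of all genes). MDM2, CDKN1A, TRIB3 and CHAC1 were among those higher. ATF3 rose there from 39.3 CPM ± 0.495 to 139 ± 4.36 (1.82 ± 0.04, adjusted p = 2.07e-13) and JUN from 206 ± 6.61 to 433 ± 25.8 (1.07 ± 0.04, adjusted p = 1.71e-10). In HFD 7 were higher and 5 lower of 16 (75% called, beside 49.5%), with MDM2 up (0.69) and TP63 down (-0.67). In shYY2 4 were higher and 10 lower of 16 (87.5%, beside 75%), with E2F1 down from 66.7 to 16.4 CPM (-2.03 ± 0.05) and TRIB3 down (-1.27). In shFOXRED1 4 were higher and 7 lower of 15 (73.3%, beside 36.6%), with E2F1 (-0.86) and ATF3 (-0.57) down.

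As a description of likeness, log2 CPM was centred within each experiment and correlated over the 24 libraries, which share their experiment, treatment and depth, with 13024 genes. The genes most like BMF were TP53INP2 (Pearson r = 0.993) and BCAS1 (0.991), and those most like BCL2L11 were PER2 (0.983) and TMEM8B (0.983). MCL1 was followed by ATP2B4 (0.988) and HINT3 (0.979), PMAIP1 by NBR1 (0.962) and MAP1LC3B (0.945), and BAX by SDC1 (0.948) and SYVN1 (0.944). BID came with PODXL2 (0.943) and IMPDH1 (0.925), BIK with CLP1 (0.940) and TRUB2 (0.938), and BAK1 with ANXA6 (0.937) and WFDC2 (0.913). The lowest maxima were those of BCL2L1, with AKT1 (0.908) and MSN (0.872), and of BBC3, with HIC2 (0.908) and RNF103 (0.906). Between members, BMF and BCL2L11 were the closest pair (0.965), followed by BAX and BIK (0.857) and BBC3 and BMF (0.820), and BIK and MCL1 ran most opposite (-0.832).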

How the data were processed

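RNA was sequenced from 24 libraries of 8 groups, 3 each, in 4 experiments. Per the methods, poly-A RNA was read as paired ends; the aligner, the counter, the annotation and the use of strand are not given in the sources used here, and neither is how mouse reads of the xenografts were handled. The submitters' processing notes name the builds hg38 and mm10 with no role. The 4 tables deposited by the authors hold raw counts per Ensembl gene. Of their 61860 genes, 99.8% had a symbol. The 37 mitochondrial genes were at 0.

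Counts were tested per experiment with edgeR 4.0.16 in R 4.3.3 (filterByExpr with a minimum count of 10 and total of 15, TMM, quasi-likelihood test, Benjamini-Hochberg over all genes tested, threshold 0.05). Standard errors were taken as the size of the log2 fold change over the root of the F statistic. Differences between experiments were interaction terms over 12 libraries, fitted jointly, so they need not equal the difference of the separate values. CPM used TMM library sizes. Exon lengths and overlaps came from GENCODE 29, which covered 94.3% of the genes, and promoters from RefSeq on GRCh38.p14. On simulated counts, 28.4 to 50.7% of 1.2-fold, 65.7 to 73.1% of 1.5-fold and 74.2 to 86.4% of 2-fold changes were recovered over the 4 experiments. Of the simulated calls, 9.46% were false in HFD, 6.43% in HA-TRIM15, 12.3% in shYY2 and 4.17% in shFOXRED1. Each simulation changed 66 or 67 genes per fold size among 15489 to 16773, a far smaller part than was called in the data. The adjusted p depends on that part, so these shares need not hold for the real calls. Alternatives were no filter, 10 counts in every library, DESeq2 size factors, DESeq2 1.42.0, all 24 libraries in 1 fit, a fold of 1.5, the replicate number as a block, and leaving out each library.

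Replicate numbers come from the titles. Deviations of same-numbered libraries correlated by at most 0.097 over all genes tested. Over genes of at least 16 CPM they did so by 0.270, 0.183 and 0.490 in the FOXRED1 experiment. A blocked value is therefore given there where a call changed. Unlike-numbered libraries 1 and 2 correlated there too, by 0.211 and 0.244, while unlike pairs with a library 3 gave -0.257 to -0.398. Only 4 of 6 libraries were closest to their own number, so the numbers need not mark pairs. No 2 replicates agreed within sampling noise (lowest chi-square 1.47 per gene). With 3 against 3 an exact test cannot go below p = 0.1, so none was used. The libraries are bulk RNA, so fewer cells of a type and less RNA per cell cannot be told apart. The 10 genes and all lists were chosen with earlier results of these data known. Listed genes are named, at most 2 per list and experiment, by the largest called change, given non-overlapping groups and an average of 1 CPM or more. Exceptions are the list of inhibitors, where further genes are named, the partners higher in HFD, and genes named to describe what a list holds. The levels of BCL2, COL1A1, PTPRC and ADIPOQ were chosen for mention after their values were seen. Of the genes selected so, 1 is not reported here. Like genes are the 2 with the highest r.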

Additional observations from a re-analysis of the deposited data

Results flagged for a closer look

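Each of the following genes changed differently in a pair of experiments by the test of the difference itself. For HFD minus HA-TRIM15, the difference of log2 fold changes was 0.27 for BCL2L1, 0.49 for MCL1, 0.34 for BAK1 and 0.55 for BID, all toward HFD. It was -0.33 for BIK, -0.35 for BBC3, -0.58 for PMAIP1 and -0.46 for BMF. For shYY2 minus shFOXRED1 it was 0.24 for BCL2L1, 0.33 for MCL1, 0.84 for PMAIP1, 0.72 for BCL2L11 and 1.10 for BMF, and -0.92 for BAX, -0.28 for BAK1 and -0.88 for BIK. These were 8 of 10 genes in each pair, where 35.2% and 54.4% of all genes differed. The experiments were prepared apart, and a difference of experiment and one of treatment cannot be told apart.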

How the results depend on the processing

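Over all alternatives, 783 of the values of single members kept their direction and their side of the threshold, 16 lost it, 8 gained it and 13 changed sign, each of the last small and not called. BCL2L11 in HA-TRIM15 was -0.0027 without EV replicate 2 (-0.0027 to 0.098 over the libraries left out), and BCL2L1 in shYY2 was 0.0004 with 10 counts in every library and 0.0076 with all 24 libraries in 1 fit. The BAX difference between HFD and HA-TRIM15 was -0.0017 with 10 counts in every library and -0.029 to 0.128 over the libraries left out, negative without ND replicate 2 or HA-TRIM15 replicate 2 or 3. The BBC3 difference between the knockdowns was 0.015 without a filter, 0.0027 with 10 counts in every library, and -0.159 to 0.042 over the libraries left out, positive without shFOXRED1 replicate 1 or 2, shControl replicate 2 of YY2 or shControl replicate 3 of FOXRED1. DESeq2 size factors changed no member call, and DESeq2 itself lost 1, the BAK1 difference between the knockdowns (adjusted p = 0.0814). With all 24 libraries in 1 fit, BCL2L1 in HA-TRIM15 was not called (adjusted p = 0.0876) and BID in shFOXRED1 was (0.0253). With no filter BBC3 in HFD was called (0.0486) and the BAK1 difference between the knockdowns was not (0.0808), and with 10 counts in every library BAK1 in shYY2 was called (0.0397). With the replicate block, BBC3 in HFD was called (adjusted p = 0.0303), as was BID in shFOXRED1 (0.00976), and no other member call changed. In HFD and HA-TRIM15 the numbers did not pair the libraries. In the YY2 experiment same-numbered libraries correlated by 0.020, 0.199 and 0.260 over genes of at least 16 CPM, not all above the limit of 0.1. A fold of at least 1.5 left 1 gene higher and 0 lower in HFD, 1 and 0 in HA-TRIM15, 3 and 1 in shYY2, and 3 and 1 in shFOXRED1. Leaving out 1 library gave 1 to 3 genes lower in HA-TRIM15 (1 without HA-TRIM15 replicate 2), 6 to 14 listed apoptosis genes lower there, and 2 to 4 genes with a negative difference in each pair of experiments. The cause of these changes was not tested. In simulations that changed far fewer genes than were called in the data, 28.4 to 50.7% of 1.2-fold changes were recovered. A change of that size may be missed in the data too, at a rate that was not measured.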
